A study of Mus musculus with 8 samples.

Results

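The 9 genes described here encode the 3 TGFβ ligands (Tgfb1, Tgfb2 and Tgfb3), their receptors (Tgfbr1, Tgfbr2 and the co-receptor Tgfbr3), the receptor-activated SMADs (Smad2 and Smad3) and the common SMAD (Smad4). They were taken by name from a table of 18102 genes, of which 12498 had a mean value of at least 10 over the libraries and were tested. All 9 were in the table and all 9 reached that mean, although Tgfb3 (19.65) and Tgfbr3 (15.02) did so narrowly. RNA sequencing was done on NMuMG, a line of mouse mammary epithelium that loses its epithelial form under TGFβ and is used as a model of that change. The 8 libraries formed 4 groups of 2, and every culture had been serum starved for 6 h. WT cells received SB505124 at 2.5 µM over 6 h in 1 group and TGFβ at 100 pM over 1.5 h in the other, and cells labelled as RREB1 knockouts (KO) were given the same treatments. SB505124 inhibits the kinase of the type I receptor, so its libraries are a state of blocked signalling and not untreated cells, and the treatment times differ between the groups compared. All KO columns carry the code KO1, which was taken as 1 clone. In every comparison between the genotypes, an effect of the knockout and a difference between clones therefore cannot be told apart. No label states that replicates came from separate cultures, so the p-values below reflect the spread between libraries, which may be technical.

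TGFβ ligands are made as latent dimers that are held in the matrix until they are released. An active ligand binds the type II receptor Tgfbr2, which phosphorylates the type I receptor Tgfbr1. Tgfbr1 then phosphorylates Smad2 and Smad3, and these join Smad4 and enter the nucleus, where they act on genes together with other transcription factors. RREB1 is a zinc finger transcription factor that acts downstream of RAS and can act with SMADs. The comparisons ask how the pathway's own genes differ between TGFβ and SB505124, between the genotypes, and whether the response to TGFβ differs between the genotypes.

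The libraries held 25144204 to 32143113 reads, and values are normalised reads, that is reads divided by a library's size factor (0.875 to 1.16). The first principal component held 76.2% of the variance and separated the genotypes, and the second held 17.4% and separated the treatments. Rreb1 was read in the KO-labelled libraries at 1335.1 (SB505124) and 2360.9 (TGFβ), above its WT means of 1044.3 and 1864.1, so its transcript level did not check the KO label and KO is used below as the name on the label. Of 10 mammary epithelial markers 6 reached a mean of 10, among them Cdh1, Krt8, Krt18 and Krt19. Epcam was at 6.06 and 30.4 in WT and 0 in the KO-labelled groups, and Krt7 was at 8875 and 11793 in WT and 20.5 and 24.9 in the KO-labelled groups. Cldn7 was at 2.02 and 1.62 in WT and 1.86 and 0.513 in the KO-labelled groups. Cldn3 and Esrp1 were not among the 18102 genes of the table. The summed epithelial markers ranged from 182040 to 191532 (WT, SB505124), 245371 to 246624 (WT, TGFβ), 187469 to 200890 (KO, SB505124) and 270685 to 273453 (KO, TGFβ). Most of each sum was Krt8 and Krt18, so it does not speak for the other markers. Of the 6 tested, 3 rose and 2 fell under TGFβ in WT, and 2 rose and 1 fell in KO-labelled cells. The 2 that fell in WT were Cdh1 (log2 -0.27, limma adjusted p = 0.0192) and Ocln (-0.58, adjusted p = 6.4e-05). Of 7 fibroblast markers 3 reached a mean of 10. The list summed to 164 to 167, 517 to 672, 46.5 to 62.2 and 383 to 407 in the order of the epithelial sums. Col1a1 and Pdgfra were the tested members that rose under TGFβ. Dcn, the other tested member, was at 90.1 and 48.9 in WT and 0.432 and 0 in the KO-labelled groups, under SB505124 and TGFβ. Its treatment differences did not pass, and its genotype differences did (log2 -6.06 and -5.61, limma adjusted p = 6.3e-09 and 1.7e-08). Col3a1, which was too low to be tested, was at 0 and 17.9 in the KO-labelled groups under SB505124 and TGFβ. Lum was listed at 0 in 3 of the 4 groups. Basal, endothelial and adipocyte lists summed to at most 89.0, 40.0 and 14.0 in any library, and leukocyte markers to 163 to 227. In the basal list Krt5 was at 0.507 and 2.77 in WT and 69.4 and 70.5 in the KO-labelled groups. Krt14 went the other way, at 4.54 and 42.0 in WT and 0 in the KO-labelled groups. Most of the leukocyte sum was Cd68 (141 and 146 in WT, 187 and 191 in KO-labelled cells). These lists moved with treatment or genotype, and their part in the results below was not tested.

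The promoters of 5 of the 9 genes are printed here because these genes rose or fell under TGFβ in WT cells. Each run is the 250 bases before a RefSeq start (GRCm38.p6), 5′ to 3′ on the gene's strand, and capitals mark any match on either strand to CAGAC (a SMAD box), TGANTCA (an AP-1 element), CCACCCC (a part of the RREB1 binding sequence) or GGGCGG (a GC box). The windows are chr7:25686752-25687001 (plus strand) for Tgfb1, chr1:186705990-186706239 (minus) for Tgfb2, chr4:47352972-47353221 (plus) and, at a second start within the gene, chr4:47385966-47386215 (plus) for Tgfbr1, chr9:116175364-116175613 (minus) for Tgfbr2 and chr9:63757995-63758244 (minus) for Smad3.
Tgfb1: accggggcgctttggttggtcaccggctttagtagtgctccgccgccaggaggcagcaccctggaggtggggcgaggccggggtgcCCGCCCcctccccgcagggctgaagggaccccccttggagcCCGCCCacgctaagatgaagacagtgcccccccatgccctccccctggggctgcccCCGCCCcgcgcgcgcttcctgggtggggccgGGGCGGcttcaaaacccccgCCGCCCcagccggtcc
Tgfb2: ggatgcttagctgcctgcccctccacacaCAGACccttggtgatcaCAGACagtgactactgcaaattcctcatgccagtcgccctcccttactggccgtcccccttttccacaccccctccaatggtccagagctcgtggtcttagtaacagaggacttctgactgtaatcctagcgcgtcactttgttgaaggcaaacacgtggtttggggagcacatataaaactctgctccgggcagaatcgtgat
Tgfbr1, first start: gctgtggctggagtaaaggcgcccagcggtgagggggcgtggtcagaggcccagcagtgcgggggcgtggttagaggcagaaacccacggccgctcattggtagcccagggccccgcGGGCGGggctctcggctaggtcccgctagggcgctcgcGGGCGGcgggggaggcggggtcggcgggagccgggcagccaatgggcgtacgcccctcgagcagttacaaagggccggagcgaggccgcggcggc
Tgfbr1, second start: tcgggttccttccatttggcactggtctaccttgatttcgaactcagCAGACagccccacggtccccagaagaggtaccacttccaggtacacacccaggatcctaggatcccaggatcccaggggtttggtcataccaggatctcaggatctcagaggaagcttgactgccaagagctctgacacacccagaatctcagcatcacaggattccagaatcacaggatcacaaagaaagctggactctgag
Tgfbr2: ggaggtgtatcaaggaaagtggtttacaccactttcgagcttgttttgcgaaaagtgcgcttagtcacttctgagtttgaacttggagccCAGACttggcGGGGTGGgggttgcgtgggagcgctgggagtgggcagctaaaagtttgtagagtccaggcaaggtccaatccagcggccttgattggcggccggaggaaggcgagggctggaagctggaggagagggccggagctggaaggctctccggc
Smad3: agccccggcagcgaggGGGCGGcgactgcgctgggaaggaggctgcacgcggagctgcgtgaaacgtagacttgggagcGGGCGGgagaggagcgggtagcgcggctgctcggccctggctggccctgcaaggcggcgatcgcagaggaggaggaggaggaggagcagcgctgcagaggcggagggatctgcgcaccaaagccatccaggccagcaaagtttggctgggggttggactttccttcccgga

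The 3 genes that rose under TGFβ had windows rich in G and C at their first starts, 75.2% for Tgfb1, 74.8% for Tgfbr1 and 69.2% for Smad3, against a mean of 53.2% over 32851 RefSeq promoters. These 3 windows held only GC boxes, 5 in Tgfb1 and 2 each in Tgfbr1 and Smad3, and a GC box was in 32.7% of all promoters. The windows of the 2 genes that fell in WT cells held CAGAC, which 42.2% of all promoters hold, and no GC box. The WT calls of Tgfb1 and Tgfb2 were lost when single libraries were left out, as given below. Windows of genes that did not respond are not printed, so no contrast by direction is drawn. Tgfb2 (53.6% G and C) had it at 221 and 204 bases before the start and Tgfbr2 (58.4%) at 160, and the second start of Tgfbr1 (52.8%) had it at 203. The only CCACCCC match lay in Tgfbr2 at 150 bases before the start, on the opposite strand, where 13.5% of all promoters hold one. TGANTCA was in none of the 6 windows and in 6.7% of all promoters. No match of one motif overlapped a match of another in these windows. A match is a stretch of letters and not a measured site, and no binding was measured.

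**Figure D1:**
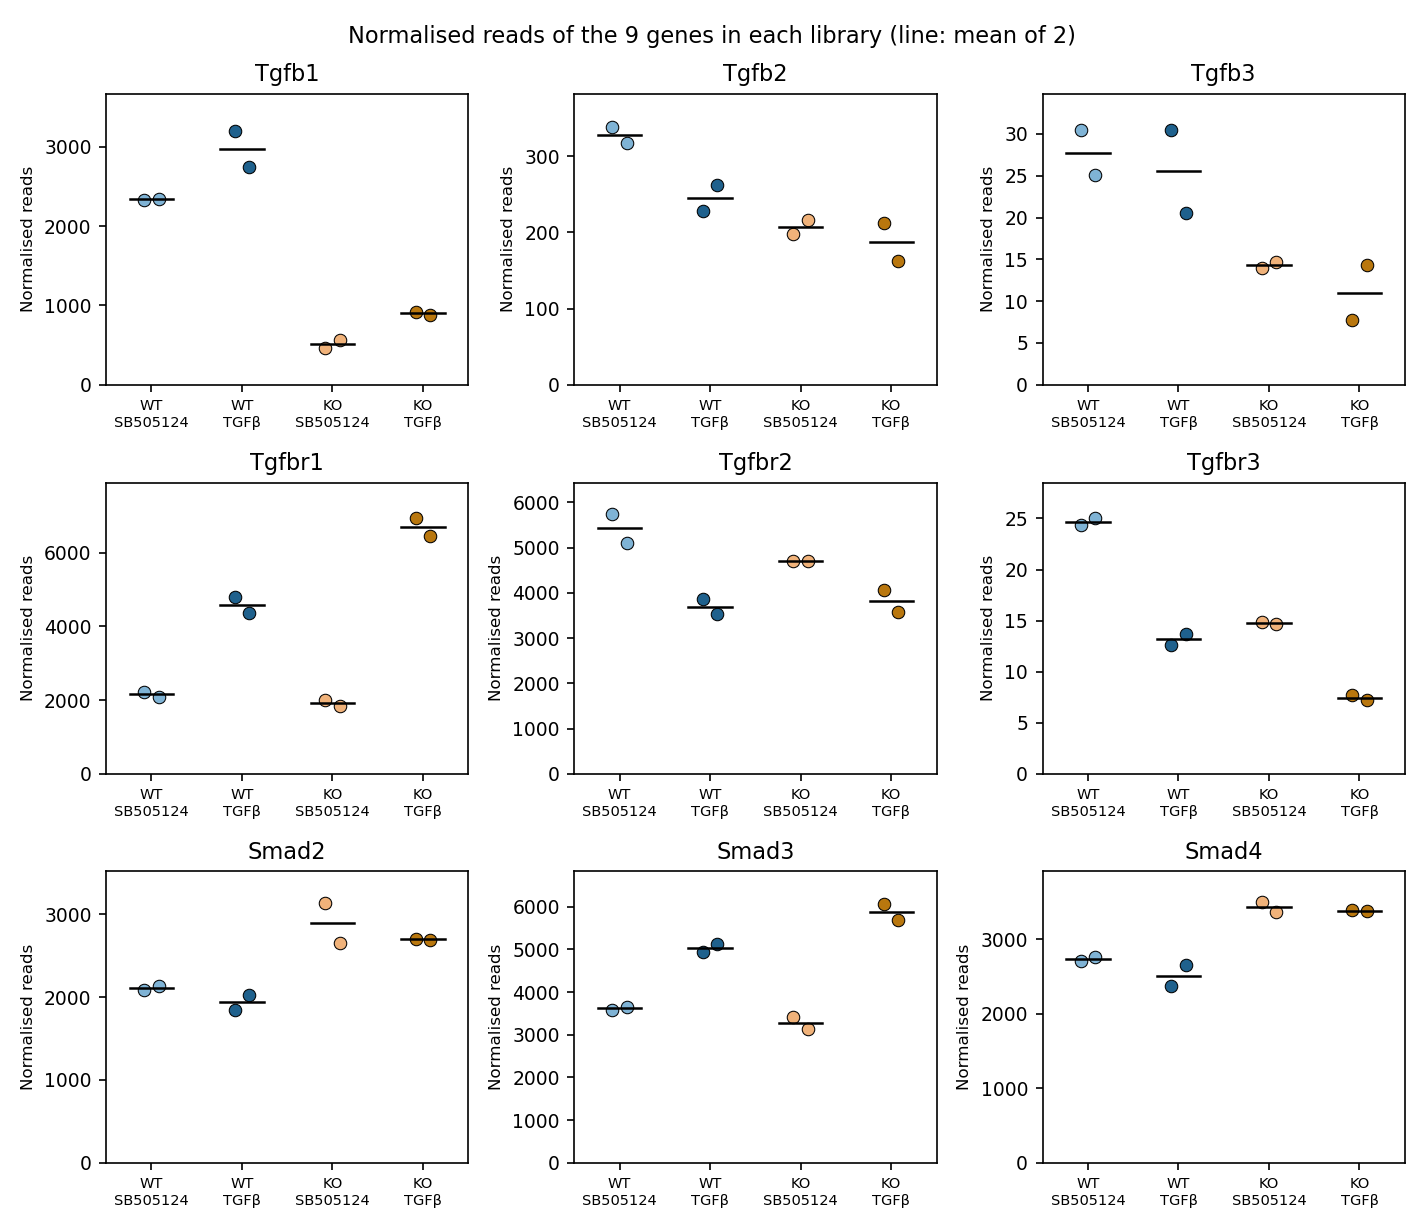
Normalised reads (vertical axis, linear and from 0) of the 9 genes in each of the 8 libraries, by genotype and treatment, with a line at the mean of 2. Tgfb1 is low in all 4 KO-labelled libraries (466 to 914), and Tgfbr1 and Smad3 are highest in the KO-labelled TGFβ libraries.

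Under TGFβ, WT cells had more Tgfbr1, Smad3 and Tgfb1 and less Tgfbr2 and Tgfb2 than under SB505124. Of the 9 genes, 3 rose and 2 fell at a limma adjusted p under 0.05, where 43.3% of all tested genes passed (20.2% higher, 23.2% lower). The same 3 genes rose in the KO-labelled cells and Tgfbr2 fell, so 3 rose and 1 fell, where 30.9% of all genes passed (15.1% higher, 15.8% lower). The median log2 difference of the 9 genes was -0.13 in WT and -0.09 in KO-labelled cells, against -0.01 and -0.02 over all tested genes. The response differed between the genotypes for 1 of the 9, Tgfbr1, where 2.82% of all genes passed (2.25% higher, 0.568% lower in the KO-labelled response), and the median of these differences was 0.26 against 0.01 over all genes.

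Between the genotypes, all 3 ligands were lower and Smad2 and Smad4 higher in the KO-labelled cells. Under SB505124, 2 of the 9 genes were higher and 4 lower, where 56.9% of all genes passed (29.2% higher, 27.7% lower). Under TGFβ, 4 were higher (Tgfbr1, Smad2, Smad3 and Smad4) and 3 lower (the ligands), where 62.9% of all genes passed (32.7% higher, 30.2% lower). The median was -0.21 under SB505124 and 0.05 under TGFβ, and 0.01 over all genes under each. With 6 and 7 of 9 passing, the share of members that passed was near the background in both genotype comparisons, as it was with 5 and 4 of 9 for the responses. The comparisons share libraries, so their values are given side by side.

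**Figure D2:**
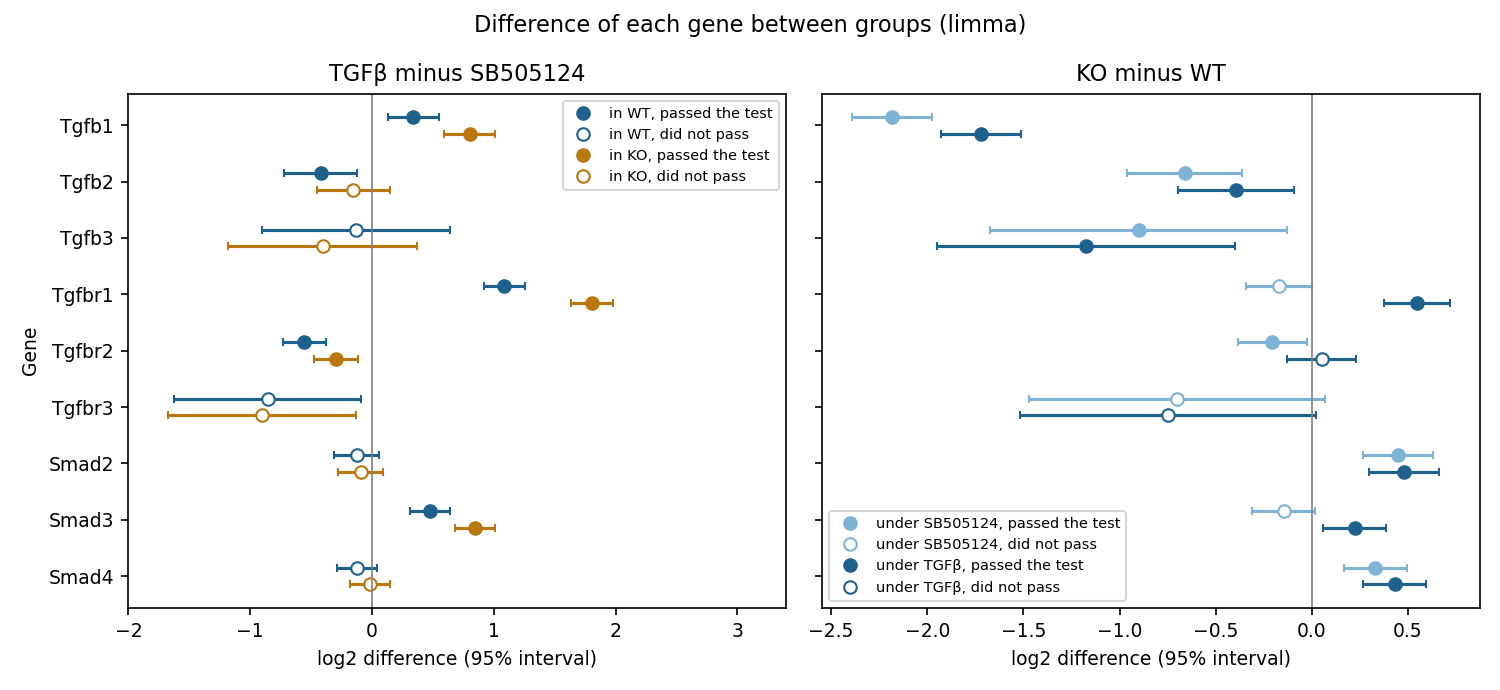
Fitted log2 differences of the 9 genes with 95% intervals (horizontal axis), TGFβ minus SB505124 on the left and KO-labelled minus WT on the right; filled points passed the test. Tgfb1 lies at -2.18 and -1.72 on the right, and the Tgfbr1 responses on the left (1.09 in WT, 1.80 in KO-labelled cells) have intervals that do not meet.

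Tgfb1 encodes TGFβ1, the most widely expressed of the 3 ligands, and its gene lies on the plus strand at chr7:25687002-25705077 (GRCm38). It was read at 2333 and 2347 in WT cells under SB505124 and at 3199.9 and 2742 under TGFβ. In the KO-labelled cells it was read at 466 and 567 under SB505124 and at 914 and 883 under TGFβ. All 4 KO-labelled libraries lay below all 4 WT libraries, and within each genotype both TGFβ libraries lay above both SB505124 libraries. For 2 libraries against 2, the smallest 2-sided exact permutation p is 0.333. A lack of overlap is therefore only a description, here and below, and its share over all genes was not counted. The KO-labelled level was 4.54-fold lower under SB505124 (log2 difference -2.18 ± 0.10 SE, limma adjusted p = 1.1e-12) and 3.30-fold lower under TGFβ (-1.72 ± 0.10, adjusted p = 3.8e-11). In bulk RNA, fewer cells that express a gene and less of its RNA per cell cannot be told apart.

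The rise of Tgfb1 under TGFβ was 1.27-fold in WT (log2 0.34 ± 0.10, limma adjusted p = 0.00988) and 1.74-fold in KO-labelled cells (0.80 ± 0.10, adjusted p = 3.8e-06). The difference of the responses was 0.46 ± 0.14 with an interval of 0.17 to 0.76, and it did not pass the test over all genes (adjusted p = 0.0878). The call of the WT rise was lost when single libraries were left out, with an adjusted p of 0.0683 without WT SB505124 replicate 1, 0.0598 without WT SB505124 replicate 2 and 0.106 without WT TGFβ replicate 1 (log2 0.23), and 0.0665 without a variance trend. The difference of responses passed without WT TGFβ replicate 1 (0.57, adjusted p = 0.0128) or without KO SB505124 replicate 2 (0.60, adjusted p = 0.0101).

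Tgfb2 encodes TGFβ2, the ligand that needs Tgfbr3 most for binding to Tgfbr2, and lies on the minus strand at chr1:186622792-186705989. Its WT libraries held 339 and 317 normalised reads under SB505124 and 228 and 262 under TGFβ. Its KO-labelled libraries held 198 and 216 under SB505124 and 213 and 162 under TGFβ. The 2 WT SB505124 libraries were the highest of the 8, the KO-labelled libraries lay below the WT libraries of the same treatment, and the KO-labelled treatment groups overlapped. Tgfb2 was lower in KO-labelled cells under SB505124 (log2 -0.66 ± 0.14, limma adjusted p = 6.4e-04) and under TGFβ (-0.40 ± 0.14, adjusted p = 0.0221). It fell under TGFβ in WT (-0.42 ± 0.14, adjusted p = 0.0236), and in KO-labelled cells its difference was -0.16 ± 0.14 (adjusted p = 0.448). The difference of the Tgfb2 responses was 0.27 ± 0.20 (interval -0.16 to 0.69) and did not pass (limma adjusted p = 0.55), so the fall is not shown to differ between the genotypes.

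The call of the Tgfb2 fall in WT was lost without WT SB505124 replicate 1 (limma adjusted p = 0.143), WT SB505124 replicate 2 (0.0673) or WT TGFβ replicate 1 (0.135), with no filter on low values (0.063) and without a variance trend (0.0611). The genotype difference of Tgfb2 under TGFβ was lost without WT TGFβ replicate 2 (adjusted p = 0.136) or KO TGFβ replicate 2 (log2 -0.20, adjusted p = 0.3), by DESeq2 (0.0542), with no filter (0.0548) and without a variance trend (0.0514).

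Tgfb3 encodes TGFβ3 and lies on the minus strand at chr12:86056745-86079041. It was near the lower limit of what was tested, at 30.4 and 25.0 normalised reads in WT cells under SB505124 and 30.5 and 20.6 under TGFβ. The KO-labelled libraries held 14.0 and 14.7 under SB505124 and 7.70 and 14.4 under TGFβ. Each KO-labelled library was below each WT library, and the treatments overlapped in both genotypes. The genotype difference passed under SB505124 (log2 -0.90 ± 0.37, limma adjusted p = 0.0444) and under TGFβ (-1.17 ± 0.37, adjusted p = 0.00968), and the treatment differences were -0.13 ± 0.37 in WT and -0.41 ± 0.37 in KO-labelled cells (adjusted p = 0.798 and 0.441).

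With 22 to 55 reads of Tgfb3 in a group, these calls depended on the libraries kept. The genotype call of Tgfb3 under SB505124 was lost without any 1 of the 4 libraries compared (limma adjusted p = 0.193 and 0.0748 without WT replicates 1 and 2, 0.131 and 0.0922 without KO replicates 1 and 2), by DESeq2 (0.124) and with no filter (0.0883). Under TGFβ it was lost without WT replicate 1 (adjusted p = 0.0904), without KO replicate 1 (log2 -0.76, adjusted p = 0.127) and by DESeq2 (0.0532). Strand was not marked by the kit used, and reads of antisense transcripts are therefore not told apart. Tgfb3 shares 163 and 257 exon bases with Gm37804 and Gm48008 and lies opposite Ttll5 with 0 shared exon bases, Tgfb2 shares 124 exon bases with the antisense transcript Gm29491, and Tgfbr3 shares 297 with Gm43422 on its own strand, so these values may hold reads of the other transcripts.

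Tgfbr1 encodes the type I receptor kinase that SB505124 inhibits, and lies on the plus strand at chr4:47353222-47414931. In WT cells it was read at 2224 and 2097 under SB505124 and at 4809 and 4372 under TGFβ. In KO-labelled cells it was read at 1998 and 1843 under SB505124 and at 6937 and 6468 under TGFβ. The 4 SB505124 libraries were the lowest and the 2 KO-labelled TGFβ libraries the highest, with no overlap between the treatments or between the genotypes under TGFβ. Tgfbr1 rose 2.12-fold in WT (log2 1.09 ± 0.08, limma adjusted p = 5.2e-09) and 3.49-fold in KO-labelled cells (1.80 ± 0.08, adjusted p = 2.5e-12). The response was larger in KO-labelled cells by 0.72 ± 0.12 (interval 0.48 to 0.96, adjusted p = 0.00126), the only member for which that difference passed. Without a variance trend the difference lost its call (adjusted p = 0.0901), and it kept it in the 17 other alternatives, each left-out library among them.

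Between the genotypes, the Tgfbr1 level under TGFβ was 1.46-fold higher in KO-labelled cells (log2 0.55 ± 0.08, limma adjusted p = 1.1e-05). Under SB505124 the KO-labelled Tgfbr1 value was -0.17 ± 0.08 against WT and did not pass (adjusted p = 0.0833). The 2 groups did not overlap, which is no test with 2 libraries in each. With trimmed-mean (TMM) scaling in place of the deposited size factors that value passed (-0.20, adjusted p = 0.042).

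Tgfbr2 encodes the type II receptor, the subunit that binds the ligand first, and lies on the minus strand at chr9:116084293-116175360. Its WT libraries held 5744 and 5113 normalised reads under SB505124 and 3856 and 3527 under TGFβ. Its KO-labelled libraries held 4698 and 4697 under SB505124 and 4071 and 3585 under TGFβ. The TGFβ libraries lay below the SB505124 libraries in both genotypes, and under TGFβ the genotypes overlapped. Tgfbr2 fell 1.47-fold in WT (log2 -0.56 ± 0.09, limma adjusted p = 4.6e-05) and 1.23-fold in KO-labelled cells (-0.30 ± 0.09, adjusted p = 0.0124), and the difference of the 2 responses was 0.26 ± 0.12 (adjusted p = 0.292). Under SB505124 it was 1.15-fold lower in KO-labelled cells (-0.21 ± 0.09, adjusted p = 0.0477), and under TGFβ the difference was 0.05 ± 0.09 (interval -0.13 to 0.23, adjusted p = 0.624).

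The fall of Tgfbr2 in KO-labelled cells was lost without KO SB505124 replicate 1 (limma adjusted p = 0.0507), without KO TGFβ replicate 2 (log2 -0.21, adjusted p = 0.199) and without a variance trend (0.0785). Its genotype difference under SB505124 was lost without WT SB505124 replicate 1 (-0.12, adjusted p = 0.383), without KO SB505124 replicates 1 or 2 (0.118 and 0.107), with no filter (0.087) and without a variance trend (0.128).

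Tgfbr3 encodes betaglycan, a co-receptor that presents ligand to Tgfbr2, and lies on the minus strand at chr5:107106570-107289629. It had the lowest mean of the 9 genes over the 8 libraries and the lowest level per kb in every group, at 24.3 and 25.0 normalised reads in WT cells under SB505124 and 12.6 and 13.7 under TGFβ, and at 14.9 and 14.7 and then 7.70 and 7.18 in KO-labelled cells. Neither the treatments nor the genotypes overlapped in any of the 4 comparisons, which with 2 libraries against 2 is no test (smallest 2-sided exact permutation p = 0.333). None of these differences of Tgfbr3 passed the test, at log2 -0.86 ± 0.37 in WT and -0.90 ± 0.37 in KO-labelled cells for the treatment (limma adjusted p = 0.0674 and 0.0701) and -0.70 ± 0.37 and -0.75 ± 0.37 for the genotype under SB505124 and TGFβ (adjusted p = 0.112 and 0.0848). A group held 15 to 49 reads of Tgfbr3 in its 2 libraries. Without a variance trend all 4 passed (adjusted p = 6.0e-04, 4.3e-04, 4.5e-04 and 3.2e-04 in the same order), and in a fit of only the groups compared the treatment differences passed (0.049 and 0.04). The WT treatment difference also passed with total-read scaling (-0.91, adjusted p = 0.0498) and with a pseudocount of 8 (-0.63, adjusted p = 0.039).

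Smad3 encodes a receptor-activated SMAD that binds DNA directly, and lies on the minus strand at chr9:63646767-63757994. It was read at 3570.0 and 3661 in WT cells under SB505124 and at 4932 and 5136 under TGFβ. The KO-labelled libraries held 3416 and 3124 under SB505124 and 6058 and 5693 under TGFβ. All 4 TGFβ libraries lay above all 4 SB505124 libraries. Smad3 rose 1.39-fold in WT (log2 0.48 ± 0.08, limma adjusted p = 7.9e-05) and 1.80-fold in KO-labelled cells (0.85 ± 0.08, adjusted p = 7.0e-08). The difference of the responses was 0.37 ± 0.11 (interval 0.14 to 0.60) and did not pass by limma (adjusted p = 0.0814), but did by DESeq2 (0.0382). Under TGFβ Smad3 was 1.17-fold higher in KO-labelled cells (0.22 ± 0.08, adjusted p = 0.0181), a call lost without WT TGFβ replicate 1 (0.0737) or KO TGFβ replicate 1 (0.15), and under SB505124 the difference was -0.15 ± 0.08 (adjusted p = 0.117).

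Smad2 encodes the other receptor-activated SMAD of this branch, and lies on the plus strand at chr18:76241580-76310963. Its WT libraries held 2086 and 2139 normalised reads under SB505124 and 1848 and 2023 under TGFβ, and its KO-labelled libraries held 3132 and 2647 and then 2705 and 2691. Every KO-labelled library was above every WT library, and the treatments overlapped in KO-labelled cells. Smad2 was 1.36-fold higher in KO-labelled cells under SB505124 (log2 0.45 ± 0.09, limma adjusted p = 2.4e-04) and 1.40-fold higher under TGFβ (0.48 ± 0.09, adjusted p = 9.9e-05). Its treatment differences were -0.13 ± 0.09 in WT and -0.09 ± 0.09 in KO-labelled cells (adjusted p = 0.252 and 0.452), and the interval of the KO-labelled value was -0.28 to 0.09.

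Smad4 encodes the SMAD shared by the TGFβ and BMP branches, and lies on the minus strand at chr18:73639009-73703780. It was read at 2703 and 2761 in WT cells under SB505124, at 2379 and 2649 under TGFβ, and at 3499 and 3366 and then 3389 and 3384 in KO-labelled cells. The KO-labelled libraries again lay above the WT libraries without overlap, and the KO-labelled treatments overlapped. Smad4 was 1.26-fold higher under SB505124 (log2 0.33 ± 0.08, limma adjusted p = 0.00143) and 1.35-fold higher under TGFβ (0.43 ± 0.08, adjusted p = 9.6e-05). The treatment differences of Smad4 were -0.12 ± 0.08 in WT and -0.02 ± 0.08 in KO-labelled cells (adjusted p = 0.22 and 0.882), and its difference of responses was 0.10 ± 0.11 (interval -0.13 to 0.33). The genotype calls of Smad2 and Smad4 held in each of the 19 alternatives.

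Levels were compared between genes as normalised reads per kb of exon (mean ± SD, n = 2), since longer genes collect more reads. The length was that of all annotated exons of a gene merged (5042 bases for Tgfb1), which can exceed the length of the transcripts expressed. Orders, shares and ratios between genes depend on these lengths, and the SDs do not cover that uncertainty. In WT cells under SB505124 the order was Smad4 (736.0 ± 10.9), Tgfbr2 (663 ± 54.6), Smad3 (652 ± 11.6), Tgfb1 (464 ± 1.92), Tgfbr1 (331 ± 13.8), Smad2 (241 ± 4.25), Tgfb2 (56.6 ± 2.58), Tgfb3 (8.19 ± 1.12) and Tgfbr3 (3.77 ± 0.0762), and only the neighbours Tgfbr2 and Smad3 overlapped. In WT cells under TGFβ Smad3 led (908 ± 26.0), followed by Tgfbr1 (703 ± 47.4) and Smad4 (677 ± 51.5), which overlapped, then Tgfb1 (589 ± 64.2), Tgfbr2 (451 ± 28.4) and Smad2 (220.4 ± 14.1). In KO-labelled cells under SB505124 the per-kb order began with Smad4 (925 ± 25.4), Smad3 (590.0 ± 37.2) and Tgfbr2 (574 ± 0.107), the last pair overlapping, then Smad2 (329 ± 39.0) and Tgfbr1 (294 ± 16.8), also overlapping, with Tgfb1 sixth (103 ± 14.2). In KO-labelled cells under TGFβ Smad3 (1060.2 ± 46.6) and Tgfbr1 (1026 ± 50.8) overlapped at the top, followed by Smad4 (912 ± 0.887), Tgfbr2 (468 ± 42.0), Smad2 (307 ± 1.14) and Tgfb1 (178 ± 4.34). The last 3 places were Tgfb2, Tgfb3 and Tgfbr3 in every group, and no pair of neighbours among them overlapped.

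The balance within each layer of the pathway was taken per kb and is given as mean ± SD. Tgfb1 made up 87.7% ± 0.659 of the summed per-kb values of the 3 ligands in WT cells under SB505124 and 92.1% ± 1.08 under TGFβ. In KO-labelled cells its share was 71.8% ± 1.64 and 83.4% ± 1.54. Tgfb2 made up 10.7% and 6.68% in WT and 25.2% and 15.1% in KO-labelled cells, so the KO-labelled ligand pool was smaller and held relatively more Tgfb2. The summed ligands per kb were 529.0 ± 1.79 and 639.0 ± 62.2 in WT and 143.0 ± 16.5 and 214.0 ± 9.15 in KO-labelled cells.

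The ratio of Tgfbr1 to Tgfbr2 was 0.485 and 0.514 in WT cells under SB505124 and 0.533 and 0.492 in KO-labelled cells, and these 2 groups overlapped. Under TGFβ it was 1.56 and 1.55 in WT and 2.14 and 2.26 in KO-labelled cells. Per kb of annotated exon, the type I receptor thus went from the lower to the higher value of the pair in both genotypes. The ratio of Smad3 to Smad2 was 2.71 ± 0.000269 and 4.13 ± 0.145 in WT and 1.80 ± 0.100 and 3.45 ± 0.139 in KO-labelled cells, under SB505124 and TGFβ. The ratio of Smad4 to the sum of Smad2 and Smad3 was 0.824 and 0.6 in WT and 1.01 and 0.668 in KO-labelled cells. These ratios are given as values and were not tested.

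**Figure D3:**
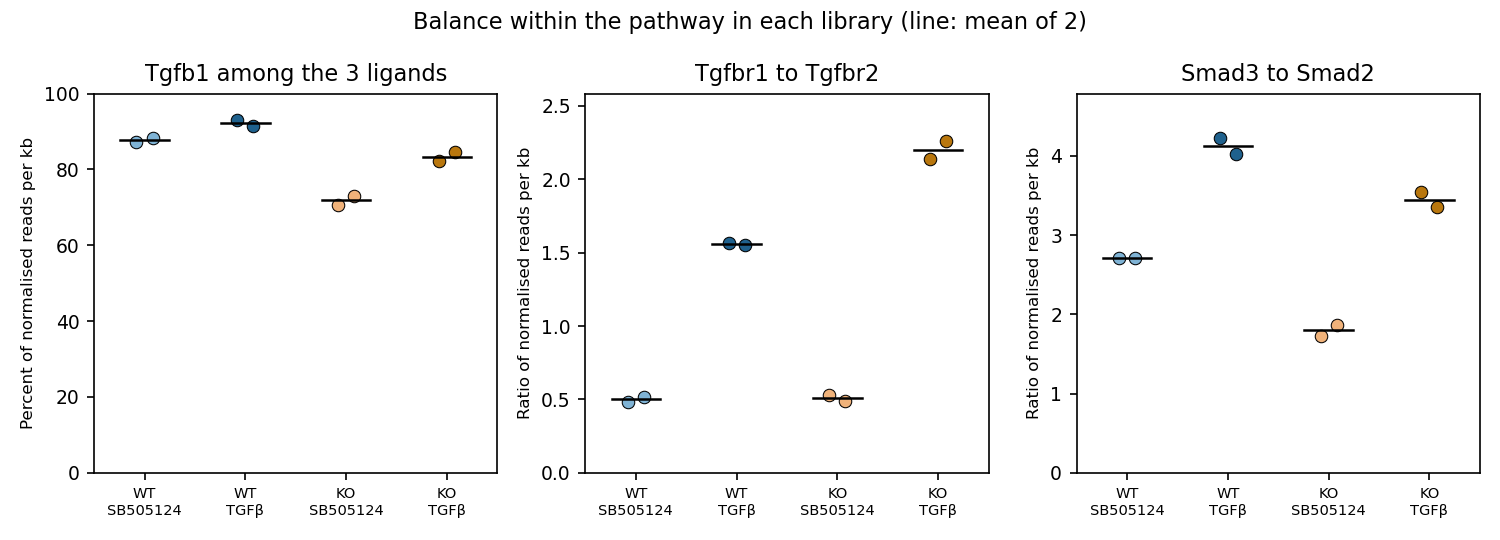
The share of Tgfb1 among the 3 ligands (percent) and the ratios of Tgfbr1 to Tgfbr2 and of Smad3 to Smad2 in each library, all from normalised reads per kb of exon, with a line at the mean of 2. The receptor ratio is 0.485 to 0.533 in the 4 SB505124 libraries and 1.55 to 2.26 in the 4 TGFβ libraries.

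The genotype difference of each gene was set beside that of the other genes of its chromosome, since the medians of some chromosomes lay far from 0. Of 20 chromosomes, 4 had the lowest median log2 difference under SB505124 (-0.69), followed by 14 (-0.62), and 18 had the highest (0.25). Tgfbr1 lies on chromosome 4, where 9.5% of 715 other genes were above 0 and the 20 nearest tested genes had a median of -0.56, with 15 lower and 3 higher by the test. Against these, the value of Tgfbr1 was -0.17 under SB505124, and under TGFβ it was 0.55 beside a chromosome median of -0.68.

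Smad2 and Smad4 both lie on chromosome 18, where 72.4% of 308 other genes were above 0. Their log2 differences of 0.45 and 0.33 under SB505124 stood beside a chromosome median of 0.25, and under TGFβ 0.48 and 0.43 beside 0.29. The 20 neighbours of Smad4 had a median of 0.32, with 11 higher and 3 lower, and those of Smad2 had a median of 0.05. Whether the genotype differences of Smad2 and Smad4 go with the median of chromosome 18 was not tested. For the other 6 genes the chromosome median lay between 0.02 and 0.11 under SB505124, and the 20 neighbours of Tgfb1 had a median of -0.06 beside its own -2.18.

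**Figure D4:**
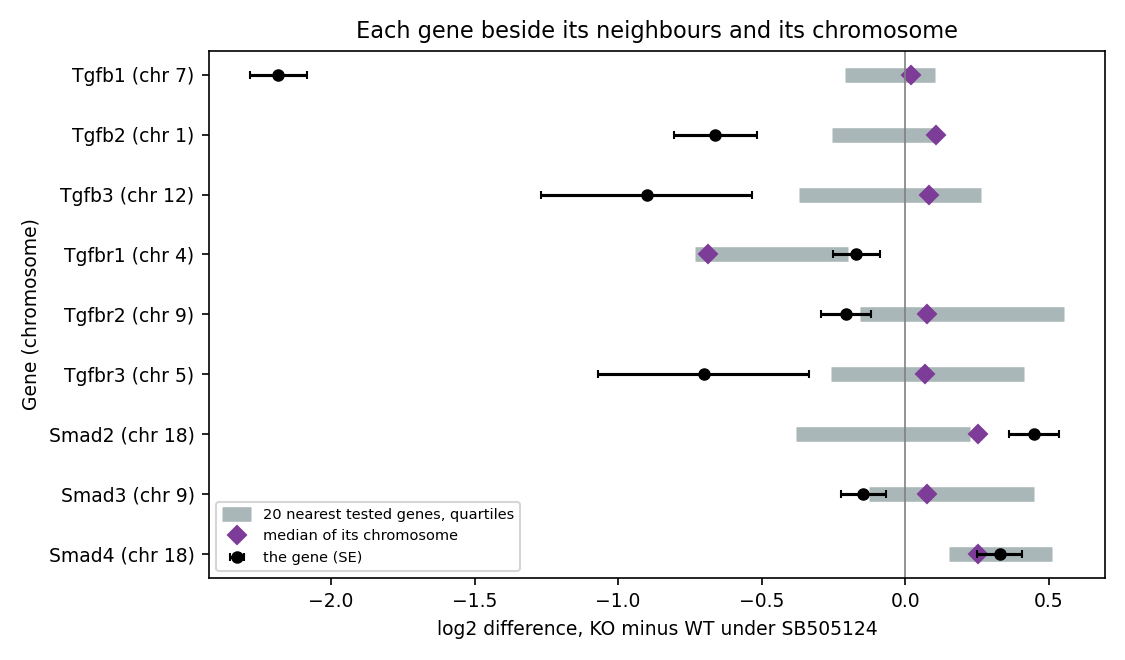
Genotype difference under SB505124 (KO-labelled minus WT, log2) of each gene with its SE, beside the quartiles of its 20 nearest tested genes (bars) and the median of its chromosome (diamonds). Tgfb1 lies at -2.18 beside a chromosome median of 0.02, and the bars and diamond of Tgfbr1 are shifted to the left.

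The genes whose profile over the 8 libraries was most like that of a member were found by the root mean square difference of centred log2 values. Nearest to Tgfb1 were Gpc1, a cell surface proteoglycan (0.12, r = 0.993), Adam12, a metalloprotease (0.15, r = 0.990), and the secreted Metrnl (0.20). Gpc1 had means of 2845 and 3908 in WT and 616 and 1307 in KO-labelled cells. Nearest to Tgfbr1 were Bcl6, a transcriptional repressor (0.13, r = 0.987; 322 and 827 in WT, 341 and 1137 in KO-labelled cells), Plekhg3 (0.14) and Abtb2 (0.17). Smad3 was nearest to Ppfibp1 (0.06, r = 0.998), Tns3 (0.06) and Fam69a (0.07), and Tgfbr2 to Polr1a, Efnb2 and Atl3 (0.06 each). Smad2 was nearest to Wipi1, Zfr and Crbn (0.04 each), Smad4 to Gga2, Fdft1 and Prpf18 (0.03 to 0.04), Tgfb2 to Mmachc, Styx and Ndc1 (0.08 to 0.09) and Tgfb3 to Naaladl1, Snord49a and Ccdc134 (0.17 to 0.18). These likenesses are over 8 libraries that share 4 group means and are a description.

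Among 126 other genes listed for the pathway, 120 were in the table and 104 were tested. In WT cells 27 rose and 32 fell under TGFβ (56.7% of the tested, median log2 -0.08), and in KO-labelled cells 36 rose and 17 fell (51.0%, median 0.04). Between the genotypes 30 were higher and 30 lower in KO-labelled cells under SB505124 (57.7%, median 0.02) and 43 higher and 26 lower under TGFβ (66.3%, median 0.14). The responses differed for 14, of which 12 were higher in KO-labelled cells (13.5%, median 0.13). The shares and medians over all tested genes are those given with the counts of the 9 genes above.

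Of 13 tested genes that bind or release latent ligand, 6 rose in WT (median 0.15) and 11 in KO-labelled cells (median 0.58), where 20.2% and 15.1% of all tested genes rose. These counts do not test a difference between the genotypes. The difference of responses passed for 1 of the 13 as higher in KO-labelled cells (Mmp14) and 1 as lower (Itgb3). Both calls were lost when single libraries were left out. Itgb6, an integrin subunit that activates latent TGFβ, rose by log2 1.70 ± 0.08 in WT (limma adjusted p = 7.1e-12) and 1.89 ± 0.08 in KO-labelled cells, and Furin, the protease that cleaves the ligand precursors, by 0.76 ± 0.11 and 1.33 ± 0.11. Between the genotypes under SB505124, 3 of these genes were higher and 5 lower. The latent binding proteins Ltbp1 and Ltbp4 were lower in KO-labelled cells, at -1.58 ± 0.08 and -3.47 ± 0.20 (adjusted p = 1.1e-11 and 3.0e-11). Ltbp3, another latent binding protein, had higher means in KO-labelled cells, at 12127 against 9758 in WT under SB505124 (0.30 ± 0.13, adjusted p = 0.0566) and 22932 against 17184 under TGFβ (0.44 ± 0.13, adjusted p = 0.00690).

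Of 7 co-receptors and ligand-binding modulators, 2 rose and 2 fell in WT and 4 rose and 1 fell in KO-labelled cells. Over all tested genes, 20.2% rose and 23.2% fell in WT and 15.1% rose and 15.8% fell in KO-labelled cells. These shares stand beside the counts of this list and of the lists that follow. Eng, which encodes endoglin, a relative of betaglycan, rose from 24.2 to 95.8 normalised reads in WT and from 17.1 to 62.1 in KO-labelled cells, while Nrp1 fell, with log2 differences of -0.63 and -0.81. Of 6 other type I and type II receptors, 2 rose and 3 fell in WT and 2 rose in KO-labelled cells. Acvr1, a type I receptor of the BMP and activin branches, rose by 1.82 ± 0.08 and 2.20 ± 0.08 (limma adjusted p = 1.5e-12 and 6.5e-14), in the direction of Tgfbr1. Acvr1b, the activin type I receptor that SB505124 also inhibits, fell in WT (-1.04 ± 0.14, adjusted p = 8.3e-06) and was at 0.16 ± 0.14 in KO-labelled cells (adjusted p = 0.421).

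Of 9 genes listed as activin, GDF and BMP ligands, 2 rose and 6 fell in WT and 3 rose and 4 fell in KO-labelled cells. Bmp1, 1 of the genes that rose in each genotype (0.57 ± 0.10 and 0.77 ± 0.10), encodes a metalloprotease and not a ligand, and is also counted among the latent ligand genes above. Bmp4 fell, with log2 differences of -2.06 and -2.21, and Bmp2 rose by 2.15 ± 0.11 in WT and 1.03 ± 0.11 in KO-labelled cells. Inhbb, an activin subunit, was lower in KO-labelled cells under SB505124 by -4.29 ± 0.17 (limma adjusted p = 1.2e-13). Of 4 other SMADs, 2 rose and 1 fell in WT and 2 rose in KO-labelled cells, with the inhibitory Smad7 going from 671 to 4392 normalised reads in WT and from 604 to 4921 in KO-labelled cells.

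Of 16 receptor and SMAD adaptors and transport factors, 2 rose and 7 fell in WT and 2 rose and 5 fell in KO-labelled cells, with Pmepa1, a feedback inhibitor, up by log2 3.24 and 3.19. Of 17 ubiquitin ligases, deubiquitinases and phosphatases, 3 rose and 5 fell in WT and 4 rose and 4 fell in KO-labelled cells. Smurf1, a ligase that acts on SMADs and the type I receptor, rose by 0.57 ± 0.08 and 1.07 ± 0.08 (limma adjusted p = 8.7e-06 and 1.8e-09). Of 16 SMAD co-activators, co-repressors and partners, 8 rose and 4 fell in WT and 8 rose and 2 fell in KO-labelled cells, among them the co-repressors Skil (2.68 and 2.93) and Ski (1.62 and 1.98) and the DNA-binding partner Runx1 (1.53 and 2.33). In the non-SMAD branch 1 of 17 rose and 4 fell in WT and 1 rose and 1 fell in KO-labelled cells, and Map2k3, a kinase above p38, was the one that rose (0.63 ± 0.08 and 0.84 ± 0.08).

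**Figure D5:**
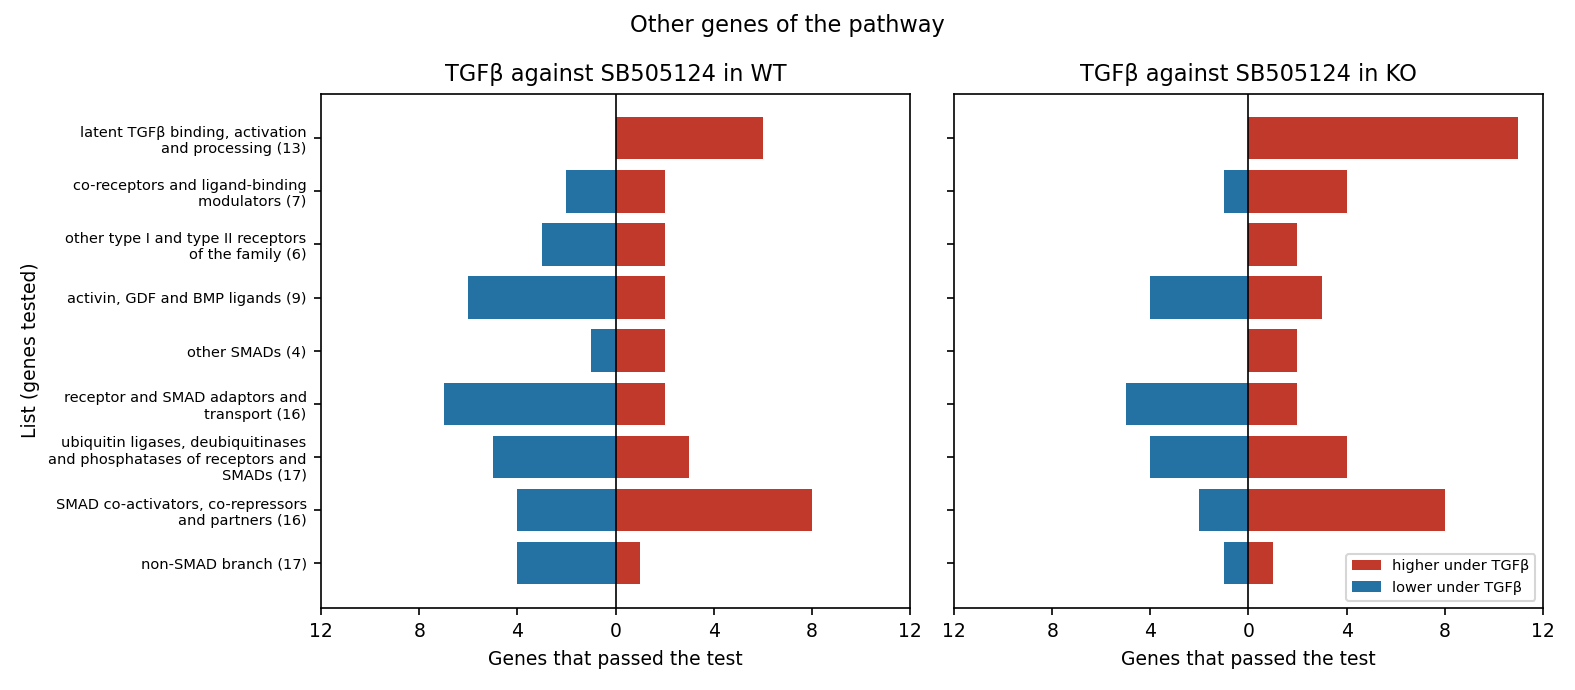
Number of genes of each pathway list that passed the limma test under TGFβ against SB505124 (horizontal axis, higher to the right and lower to the left) in WT and KO-labelled cells, with the number tested in brackets. The latent binding and activation list has 6 of 13 higher in WT and 11 of 13 in KO-labelled cells. The test of the difference of responses passed for 1 of these 13 as higher and 1 as lower in KO-labelled cells.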

How the data were processed

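Levels of 18102 genes were measured by RNA sequencing in 8 libraries. The deposited values are a signal, read counts divided by size factors by the authors. FastQC 0.11.5, HTSeq 0.6.1p1, DESeq2 3.4 and build mm10 are named per the submitters' processing notes, and the aligner is not given in the sources used here. Libraries were made with TruSeq RNA v2, per the labels' protocols, and this kit does not mark strand. Values were whole multiples of 1 read's worth in 100% of cases within 0.01 reads, so reads were recovered for the count tests.

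Genes with a mean of at least 10 were tested on log2(value + 1), which understates changes of low genes, with limma 3.58.1 in R 4.3.3. A model of the 4 group means with a variance trend (residual df 4, prior df 14.3) was fitted to all 8 libraries. Within a contrast, Benjamini-Hochberg adjustment ran over the 12498 tested genes (threshold 0.05), and the procedure was tested on simulated data. The simulation gave all genes the same dispersion and changed only genes read more highly than Tgfb3 and Tgfbr3. It therefore does not show how well changes of such low genes are found. Alternatives were edgeR 4.0.16 and DESeq2 1.42.0, other scalings, pseudocounts, filters and variance models, the 2 groups compared alone, a replicate block and each library left out. Genes, lists and rules were chosen with earlier results of these data known. All 9 genes were named in every contrast, as were up to 4 genes with the smallest p of each list and the 3 genes most like each called member, predicted genes left out. Coordinates and exon lengths come from GENCODE M21 (GRCm38), where 94.9% of the symbols were found, and promoters from RefSeq, which was matched for Tgfb1, Tgfb2, Tgfbr1, Tgfbr2 and Smad3 in what is printed. Smad2 and Smad4 promoters are not reported here.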

Additional observations from a re-analysis of the deposited data

Results flagged for a closer look

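For 15 genes, 1 of the 9 and 14 of the other pathway genes, the test of the difference between the 2 responses to TGFβ passed (limma adjusted p under 0.05 over all genes). The differences are given as log2 values, the response in KO-labelled cells minus that in WT. Tgfbr1 had 0.72. Among latent ligand genes Mmp14 had 0.55 and Itgb3 -0.59. The activin-binding Fst had 1.50, where it rose in KO-labelled cells and fell in WT, and Nrp2 had 1.06. The activin receptor Acvr1b had 1.19. The ligands Bmp2 and Bmp8a had -1.12 and 2.24. The import factor Ipo7 had 0.55 and the ligase Smurf1 0.50. Among SMAD partners Runx1 had 0.80, Crebbp 0.59, Atf3 0.62 and Ep300 0.45, and the adaptor Shc1 had 0.42.

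Fst and Bmp2 passed in each of the 18 alternatives, and Bmp8a in each of the 17 in which it was tested. Tgfbr1, Acvr1b, Nrp2 and Runx1 lost the call only without a variance trend (adjusted p = 0.0901, 0.11, 0.0628 and 0.0626 by limma). The other 8 were also lost when single libraries were left out. WT SB505124 replicates 1 and 2 each ended all 8 of these calls, and the highest adjusted p with a library left out was 0.201 for Mmp14, 0.184 for Itgb3, 0.286 for Ipo7, 0.111 for Smurf1, 0.252 for Crebbp, 0.154 for Atf3, 0.334 for Ep300 and 0.238 for Shc1. In each of these 8, between 1 and 4 further libraries also ended the call.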

How the results depend on the processing

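Of 836 values of the 9 genes under the alternatives, 774 kept their direction and side of the threshold, 35 lost the call, 13 gained it and 14 changed sign, all of the last among values that had not passed. The sign changes in the WT response were Tgfb3 at 0.00254 without WT SB505124 replicate 1 and 0.141 without WT TGFβ replicate 2. In the KO-labelled response they were Tgfb2 at 0.0401 without KO TGFβ replicate 2, Tgfb3 at 0.00327 without KO TGFβ replicate 1, and Smad2 at 0.0274 and Smad4 at 0.00875 without KO SB505124 replicate 1. In the difference of responses they were Tgfb3 at 0.000262 and 0.136 without WT and KO TGFβ replicate 1, Tgfbr3 at 0.0647 with a pseudocount of 8 and 0.00931 without WT TGFβ replicate 2, and Smad2 at -0.0315 without WT TGFβ replicate 1 and -0.0876 without KO SB505124 replicate 2. In the genotype comparison under TGFβ they were Tgfbr2 at -0.0133 without WT TGFβ replicate 2 and -0.0408 without KO TGFβ replicate 1. At the other end of the range with 1 library left out, Tgfb3 was at -0.407 in the WT response, Tgfb2, Tgfb3, Smad2 and Smad4 were at -0.351, -0.816, -0.215 and -0.0473 in the KO-labelled response, Tgfb3, Tgfbr3 and Smad2 were at -0.683, -0.101 and 0.155 in the difference, and Tgfbr2 was at 0.143 between genotypes under TGFβ. Leaving out 1 library gave 3 to 5 members and 3684 to 5565 genes in the WT response, 3 to 4 and 2320 to 4410 in the KO-labelled response, 1 to 2 and 141 to 1027 in the difference, 4 to 6 and 5714 to 7477 between genotypes under SB505124 and 5 to 7 and 6421 to 7938 under TGFβ. The difference of responses had 134 genes with no filter on low values and 47 without a variance trend, and 0 members without a trend, 2 by DESeq2 and 1 by edgeR; the cause was not tested. Low read numbers limit Tgfb3 and Tgfbr3.

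The replicate numbers are not said to pair libraries, and deviations of same-numbered libraries correlated at -0.199 to 0.198. With the replicate block 5359, 3658, 252, 7103 and 7835 genes and 5, 4, 1, 6 and 7 members passed in the 5 comparisons in the order of the counts above. Under SB505124 the block ended the genotype call of Tgfb3 (limma adjusted p = 0.0608) and added that of Tgfbr1 (0.0431), and in the difference of responses it ended the calls of Atf3, Ipo7 and Shc1.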
